A study of Mus musculus with 30 samples.

Results

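The mRNA signals of 53 genes that encode proteins of the spliceosome and heterogeneous nuclear ribonucleoproteins (hnRNPs) were followed here, in the livers of adult mice. Splicing itself and the amounts of these proteins were not measured. The genes were listed by symbol, as Sm and U1 proteins, U2 and branch site proteins, proteins of the tri-snRNP, the Prp19 complex with a disassembly helicase, SR and Tra2 proteins, hnRNPs, and other factors rich in arginine and serine. Of them, 51 were matched to a single probe set among the 22206 tested on Clariom S mouse arrays, while Srsf7 and Hnrnpa1 were not matched in the annotation used. Total liver RNA came from 30 C57/BL6J offspring aged 16 weeks, with 1 array per animal. Group names give the diet of the sperm donor first and the diet of the vasectomised male that supplied seminal plasma second, with N for a normal protein diet and L for an isocaloric low protein diet. NL offspring (normal sperm, low protein seminal plasma) and LN offspring (low protein sperm, normal seminal plasma) gave 7 arrays each, LL offspring (low protein for both) gave 9, and NN offspring (normal for both) gave 7. All were conceived by artificial insemination of superovulated females, and the diets were fed to the males of the previous generation, not to the animals measured. There were 4 males in each group, with 5 females in LL and 3 females in each of NL, LN and NN. Litters are not named in the labels. The study describes its liver samples as males and females in pairs, with a separate litter for each pair. Brothers and sisters are therefore likely to be among the animals of a group. Each animal was taken as independent, so that P values measure only the spread between these arrays.

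The spliceosome removes introns from precursor mRNA. It is built from small nuclear ribonucleoproteins (snRNPs): U1 recognises the 5′ splice site, U2 the branch site, and the U4/U6.U5 tri-snRNP brings in the components from which the catalytic centre forms, with the Prp19 complex stabilising it. SR proteins bind exons and mostly favour the use of nearby splice sites, whereas hnRNP proteins coat the nascent transcript and often oppose that use, so that the balance of both families sets which exons are retained. In liver, as in other tissues, these proteins are made in nearly all cell types.

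Values were log2 signals of whole liver, in which fewer cells of a type and less RNA per cell cannot be told apart. The mean signals of the 51 probe sets lay between 5.81 and 11.17, with a median of 8.20, against a median of 5.51 for all tested. For that reason the genes were also set beside the 7066 probe sets with mean signals between 6.39 and 9.64, a range that holds 41 of them and is called like signal below. Within this range the probe sets were not matched to the genes any further. The array labelled NL replicate 6 stood apart: its mean signal over the hybridisation controls was 7.61 while the other 29 arrays lay between 10.14 and 10.95, and its GC-rich background probes were at 8.89 where the others reached 7.23 at most. On this array 42 of the 51 genes were below every other array and 7 were above, with a median deviation of −1.94 on the log2 scale from the NN mean. Below every other array were thus 82.4% of the 51 genes, but also 65.1% of like signal probe sets and 29.5% of all tested. It is labelled male, yet its Y-linked genes were near the level of females (Eif2s3y at 3.24, against 7.76 to 8.87 on the other male arrays and 2.53 to 3.30 on all but 1 female array). Results are therefore given for the other 29 arrays, and with this array, entered as a male, where that changes them. The array labelled LL replicate 1, female, had an intermediate signal of Eif2s3y (6.56) and was kept as labelled. Hepatocyte markers were level between the groups, at a mean of 13.01 in NL and 13.04 in NN offspring, whereas exocrine pancreas markers reached 8.80 on 1 NN array, against 5.28 at most on the NL, LN and LL arrays.

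Taken as a median over the 51 genes, signals were lowest on average in NL offspring. The median deviation of the 51 genes from the NN mean lay between −0.30 and −0.07 on the 6 NL arrays, from −0.15 to 0.13 on the 7 LN arrays, from −0.10 to 0.10 on the 9 LL arrays, and from −0.09 to 0.17 on the 7 NN arrays. All 6 NL arrays were below 0, and the highest of them overlapped the lowest LN, LL and NN arrays. Over like signal probe sets, the same deviation ran from −0.14 to 0.02 on NL arrays and from −0.05 to 0.04 on NN arrays. Hybridisation controls differed between the groups as well, with mean signals of 10.49 ± 0.14 (SD) on NL, 10.43 ± 0.21 on LN, 10.76 ± 0.16 on LL and 10.77 ± 0.15 on NN arrays. Their part in the lower signals of the genes was not tested.

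**Figure D1:**
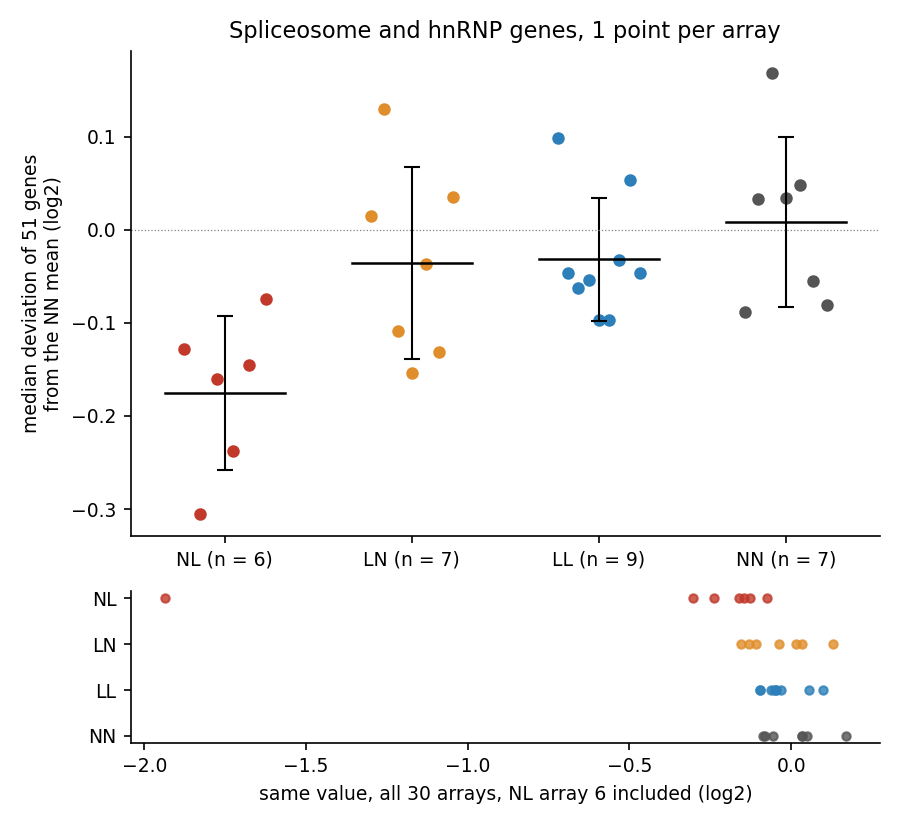
Median deviation of the 51 spliceosome and hnRNP genes from their NN means (log2), 1 point per array. Top: the 29 arrays by group, with mean and SD, where NL arrays lie from −0.30 to −0.07; bottom: all 30 arrays, with NL replicate 6 at −1.94.

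Comparison of NL with NN offspring asked what low protein seminal plasma does to the liver of offspring from normal sperm. Log2 fold changes of 47 of the 51 genes were below 0, with a median of −0.18, against 0.01 over all tested probe sets and −0.04 over those of like signal. The share below 0 was 92.2% of the 51 genes, 47.1% of all tested and 59.3% of like signal probe sets. At an unadjusted P under 0.05, 15 of the 51 genes were lower and 2 were higher, against 5.98% of all tested probe sets lower and 8.08% higher. Among like signal probe sets, 10.4% were lower and 5.96% were higher. Only 1 gene, U2surp, passed a Benjamini-Hochberg adjusted P of 0.05 over all tested (limma, two-sided), as did 0.054% of all probe sets. Each shift was small, and 1 of the 51 genes, Hnrnpd, differed by more than 1.5-fold.

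The counts depended on which NL arrays were used. With all 30 arrays, 25 genes were lower and 1 was higher at an unadjusted P under 0.05 (9.27% and 14.6% of all tested), the median was −0.43, and no gene passed the adjusted threshold. Without both NL replicate 6 and NL replicate 4, the next array in width of deviations, 14 were lower and 2 higher (4.8% and 6.12% of all tested), the median was −0.18, and again no gene passed. The corresponding medians for like signal probe sets were −0.22 with all arrays and −0.02 without both.

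**Figure D2:**
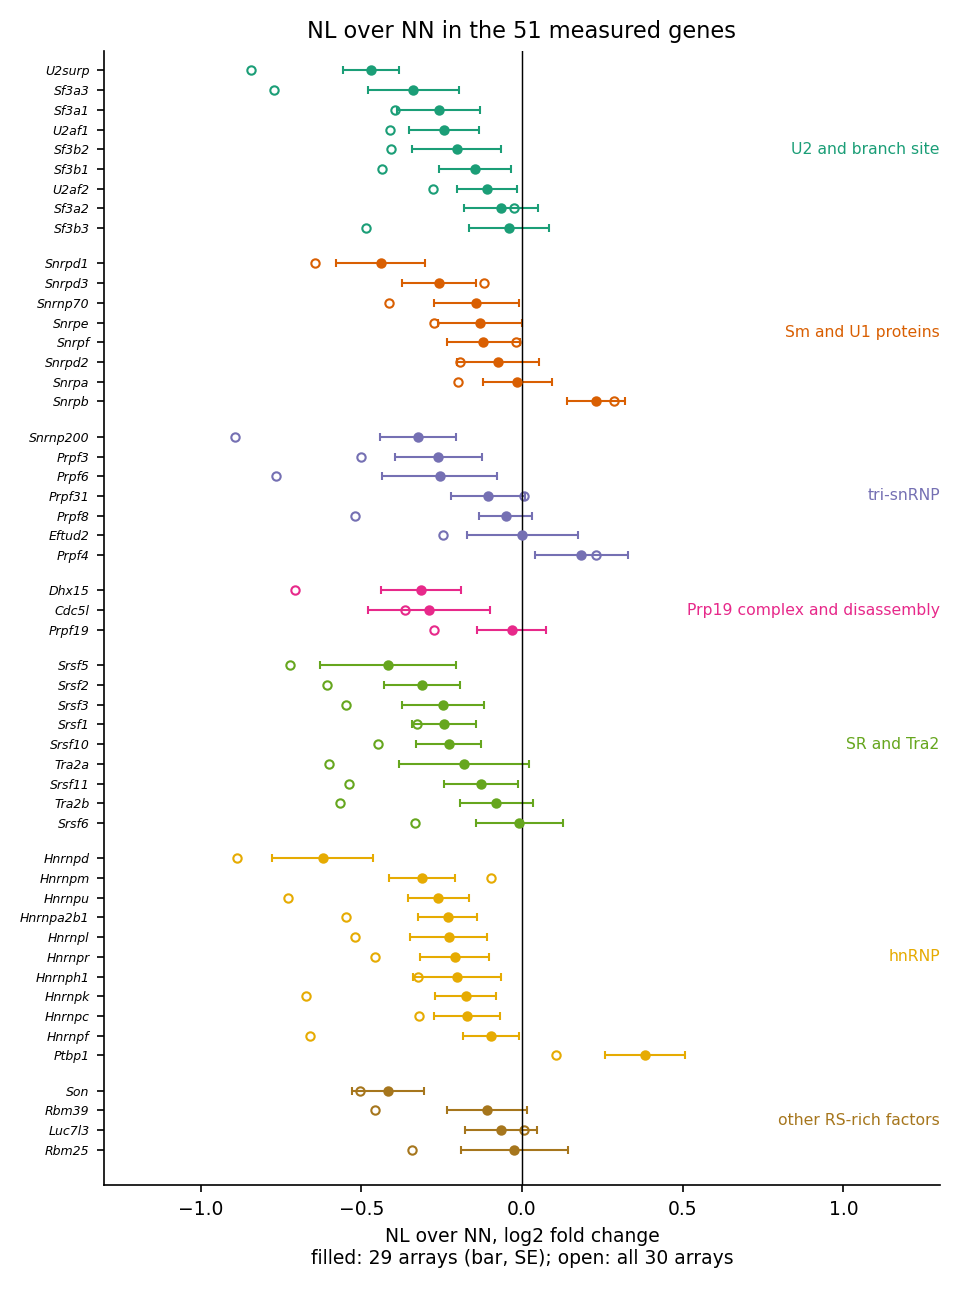
Log2 fold change of NL over NN for the 51 measured genes, by role. Filled points with SE bars are from 29 arrays and lie between −0.62 (Hnrnpd) and 0.38 (Ptbp1); open points are from all 30 arrays, and most lie further to the left.

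Promoter sequences are shown for the 5 genes that passed an adjusted P of 0.05 in any comparison of both sexes or between the sexes, to set sequence beside the genes on which the results turn. They are the 120 bases before the RefSeq transcription start (GRCm38.p6), written 5′ to 3′ on the strand of the gene. They lie at chr9:95511997-95512116 on the minus strand for U2surp, chr5:99978939-99979058 on the minus strand for Hnrnpd, chr16:91647704-91647823 on the plus strand for Son, chr10:79854312-79854431 on the plus strand for Ptbp1 and chr2:181601199-181601318 on the plus strand for Prpf6. Capitals mark matches, on either strand, to CCGGAAG (the ETS core), CCAAT (the CCAAT box), GGGCGG (the SP/KLF box), CACGTG (the E-box) or TGACG (part of the cyclic AMP response element).
U2surp: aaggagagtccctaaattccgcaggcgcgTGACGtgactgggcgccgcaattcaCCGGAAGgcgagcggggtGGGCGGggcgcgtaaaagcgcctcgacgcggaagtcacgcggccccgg
Hnrnpd: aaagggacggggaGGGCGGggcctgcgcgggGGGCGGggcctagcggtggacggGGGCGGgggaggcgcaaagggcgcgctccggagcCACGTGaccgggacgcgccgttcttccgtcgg
Son: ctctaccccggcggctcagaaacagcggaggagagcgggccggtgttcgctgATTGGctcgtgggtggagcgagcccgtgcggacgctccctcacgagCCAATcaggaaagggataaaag
Ptbp1: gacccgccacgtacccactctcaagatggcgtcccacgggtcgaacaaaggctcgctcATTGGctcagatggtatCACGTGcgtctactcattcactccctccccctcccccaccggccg
Prpf6: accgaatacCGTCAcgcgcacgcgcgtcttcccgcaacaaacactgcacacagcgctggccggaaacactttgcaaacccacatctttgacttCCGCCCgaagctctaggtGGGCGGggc
All 5 are rich in G and C, with 60.8% in Prpf6 and 79.2% in Hnrnpd at the ends of the range, and no motif is common to all. Over 250 bases before the start, in the 47 of 51 genes with an entry, GGGCGG was found in 26 (55.3%, against 32.9% of 27025 promoters), CCAAT in 23 (48.9%, against 34.5%), TGACG in 22 (46.8%, against 17.9%), CCGGAAG in 12 (25.5%, against 7.05%) and CACGTG in 3 (6.38%, against 6.05%). The 27025 promoters were not matched to the genes for signal or for G and C content, and the part of either in these shares was not tested. Matches of TGACG and CACGTG can overlap by a few letters, and a match describes the sequence only.

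Among U2 and branch site proteins all 9 were below 0 in NL against NN offspring, with a median of −0.20, and 3 were lower at an unadjusted P under 0.05. Of like signal probe sets 59.3% were below 0 and 10.4% were lower, and of all tested 47.1% and 5.98%. U2surp, a serine and arginine-rich protein associated with the U2 snRNP, was at 8.51, 8.76 and 8.88 (lowest, median, highest) on NL arrays, 8.90, 9.02 and 9.22 on LN arrays, 8.93, 8.96 and 9.20 on LL arrays, and 8.96, 9.20 and 9.42 on NN arrays. The highest NL array was below the lowest array of every other group, so that NL did not overlap NN, LN or LL. The signal averaged 8.71 ± 0.13 (SD, n = 6) in NL and 9.18 ± 0.14 (n = 7) in NN offspring, and fell 1.38-fold (log2 fold change −0.47, SE 0.09, adjusted P = 0.0250, limma). An exact two-sided permutation test of these arrays gave P = 0.00117, the smallest that 6 against 7 arrays allow. This value follows from the lack of overlap, is not adjusted for the number of genes, and adds no separate support. Groups that did not overlap downwards were found for 1 of the 51 genes and for 0.297% of all tested probe sets against NN, and for the same gene and 0.0811% against LN. The adjusted P of U2surp was 0.111 with all 30 arrays. It was 0.108 or 0.0915 without NL replicate 2 or 4, and 0.0523, 0.0589 or 0.0582 without NN replicate 2, 4 or 5, with log2 fold changes from −0.47 to −0.43. Sf3a3, a subunit of the SF3A complex that joins U2 to the branch site, averaged 6.98 ± 0.25 in NL and 7.32 ± 0.23 in NN (−0.34, SE 0.14, adjusted P = 0.278, limma). U2af1, the subunit of U2AF that reads the AG at the 3′ splice site, averaged 8.04 ± 0.13 in NL and 8.28 ± 0.27 in NN (−0.24, adjusted P = 0.318, limma). Neither passed, and the remaining 6, the other SF3A subunits, the SF3B subunits Sf3b1, Sf3b2 and Sf3b3, and U2af2, had log2 fold changes of −0.26 to −0.04.

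Of the 8 Sm and U1 genes, 7 were below 0 in NL against NN, with a median of −0.13 (47.1% of all tested and 59.3% of like signal below 0). At an unadjusted P under 0.05, 2 were lower and 1 was higher (5.98% and 8.08% of all tested, 10.4% and 5.96% of like signal). Snrpd1, 1 of the Sm proteins that form a ring around the snRNA, was at 6.04, 6.13 and 6.46 on NL arrays and at 6.39, 6.55 and 7.16 on NN arrays (−0.44, SE 0.14, adjusted P = 0.167, limma). Only the highest NL values reached the NN range. Snrpb, which encodes the Sm protein B of the same ring, had the opposite sign, at 7.60, 7.80 and 7.98 on NL arrays and 7.40, 7.61 and 7.82 on NN arrays (0.23, SE 0.09, adjusted P = 0.252, limma). Snrpd3, a further protein of the ring, averaged 8.07 ± 0.17 in NL and 8.33 ± 0.21 in NN (−0.26, adjusted P = 0.310, limma). Snrnp70, the U1 protein that contacts SR proteins, averaged 8.54 ± 0.35 and 8.68 ± 0.13 (−0.14, adjusted P = 0.659, limma). Sm and hnRNP families have processed pseudogenes in the mouse genome, and whether their transcripts reach these probe sets was not tested.

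In the tri-snRNP, 5 of 7 genes were below 0 in NL against NN and 1 was lower at an unadjusted P under 0.05. For 7 genes these counts were near the shares of like signal probe sets, 59.3% below 0 and 10.4% lower (47.1% and 5.98% of all tested). Snrnp200, the helicase that unwinds U4 from U6, was at 6.97, 7.33 and 7.62 on NL arrays and 7.27, 7.66 and 7.81 on NN arrays (−0.32, SE 0.12, adjusted P = 0.217, limma). Prpf3 and Prpf4, partners within the U4/U6 snRNP, had log2 fold changes of −0.26 and 0.18, and Prpf6, which bridges U5 with U4/U6, had −0.26. None of these 3 passed an unadjusted P of 0.05. Prpf8, the scaffold of the catalytic centre, and Eftud2, its GTPase partner, were close to 0 (−0.05 and 0.00). Of the Prp19 complex and disassembly genes, Dhx15, a helicase that takes spent spliceosomes apart, was at 7.55, 8.07 and 8.45 on NL arrays and 8.15, 8.32 and 8.54 on NN arrays (−0.31, SE 0.12, adjusted P = 0.253, limma). Cdc5l and Prpf19, core proteins of the Prp19 complex, had −0.29 and −0.03.

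SR and Tra2 proteins were all 9 below 0 in NL against NN, with a median of −0.23, and 3 were lower at an unadjusted P under 0.05. The shares below 0 and lower were 59.3% and 10.4% of like signal, and 47.1% and 5.98% of all tested. Srsf2, which binds exonic enhancers, was at 7.66, 7.88 and 8.07 on NL arrays and 7.93, 8.15 and 8.48 on NN arrays (−0.31, SE 0.12, adjusted P = 0.235, limma). Srsf1, a founding member of the family, averaged 8.58 ± 0.12 in NL and 8.83 ± 0.27 in NN (−0.24, adjusted P = 0.273, limma), and an exact permutation test of it gave P = 0.0629. Srsf10, a repressor once dephosphorylated, averaged 7.28 ± 0.11 and 7.51 ± 0.15 (−0.23, adjusted P = 0.302, limma). Srsf5 differed by more (−0.42) but its NL arrays varied with an SD of 0.36, and it missed an unadjusted P of 0.05. The log2 fold changes of Srsf3, Srsf6, Srsf11, Tra2a and Tra2b ran from −0.25 to −0.01.

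Of the 11 hnRNP genes, 10 were below 0 in NL against NN and 1, Ptbp1, was above, with 4 lower and 1 higher at an unadjusted P under 0.05. Among like signal probe sets 59.3% were below 0, 10.4% were lower and 5.96% were higher (47.1%, 5.98% and 8.08% of all tested). Hnrnpd, also known as AUF1, which binds AU-rich elements and alters mRNA decay as well as splicing, was at 7.90, 8.03 and 8.57 on NL arrays, 7.41, 8.29 and 8.87 on LN arrays, 8.17, 8.34 and 8.70 on LL arrays, and 8.48, 8.75 and 9.08 on NN arrays. The groups overlapped, since 1 NL array was above the lowest NN array, although the medians were all below that of NN. The signal was 1.54-fold lower in NL than in NN offspring (−0.62, SE 0.16), at an adjusted P of 0.0930 (limma). Sex as a covariate brought that to 0.0365, with a log2 fold change of −0.65. Hnrnpm, at 7.91, 8.25 and 8.48 on NL arrays and 8.32, 8.52 and 8.71 on NN arrays, differed by −0.31 (adjusted P = 0.177, limma). Hnrnpu, a scaffold attachment factor, differed by −0.26 and Hnrnpa2b1, a reader of exonic silencers, by −0.23, and neither passed the adjusted threshold. Ptbp1, the polypyrimidine tract binding protein that represses exons, ran the other way, at 8.91, 9.06 and 9.28 on NL arrays, 8.63, 9.03 and 9.20 on LN arrays, 8.52, 8.87 and 9.26 on LL arrays, and 8.26, 8.65 and 9.05 on NN arrays. Its log2 fold change in NL against NN was 0.38 (SE 0.12, adjusted P = 0.172, limma), and 0.10 with all 30 arrays, in which NL replicate 6 was at 7.10.

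Son, a nuclear speckle protein needed for splicing of weak introns, led the other factors rich in arginine and serine. It was at 7.80, 8.18 and 8.41 on NL arrays, 7.77, 8.06 and 8.37 on LN arrays, 8.22, 8.34 and 8.65 on LL arrays, and 8.32, 8.53 and 8.90 on NN arrays. NL and LN arrays were alike in level, and each group reached the NN range with its highest array. The log2 fold change in NL against NN was −0.42 (SE 0.11, adjusted P = 0.104, limma). Rbm39, which binds U2AF, had −0.11, Luc7l3, related to a yeast U1 protein, had −0.07, and Rbm25, which regulates splice site choice, had −0.02. Signs of Rbm25 and of Prpf19 turned under quantile normalization, at 0.03 and 0.02.

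**Figure D3:**
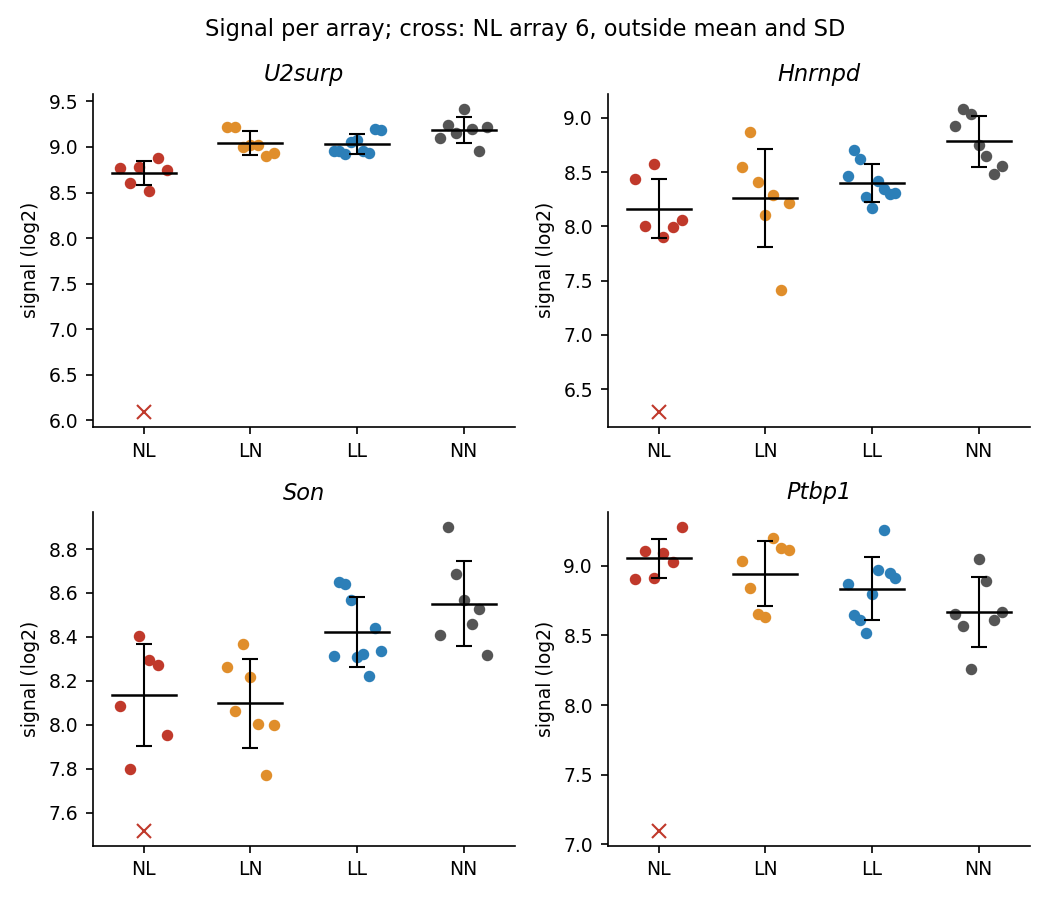
Log2 signal of U2surp, Hnrnpd, Son and Ptbp1, 1 point per array in NL, LN, LL and NN offspring, with mean and SD over 29 arrays and NL replicate 6 as a cross. NL arrays of U2surp lie at 8.88 or below and NN arrays at 8.96 or above, and Son is lower in NL and LN than in LL and NN.

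LN offspring were compared with the same NN arrays, so the contrasts share their controls. The median log2 fold change of the 51 genes was −0.05, against 0.02 over all tested, with 6 genes lower and 1 higher at an unadjusted P under 0.05 (4.69% and 6.87% of all tested, 6.06% and 7.25% of like signal). Son differed by −0.46 (SE 0.11, adjusted P = 0.123, limma), Hnrnpd by −0.52 (SE 0.15, adjusted P = 0.199, limma) and Snrpd1 by −0.40 (SE 0.13, adjusted P = 0.248, limma). Srsf2, Snrnp70 and Luc7l3 were the other 3 lower genes, at −0.31, −0.28 and −0.23, and Ptbp1 was the higher gene, at 0.27. None passed the adjusted threshold, which 0.0405% of all probe sets did. The count of 7 genes became 4 without LN replicate 7. U2surp averaged 9.04 ± 0.13 (n = 7) in LN offspring.

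LL offspring had fewer genes past an unadjusted P of 0.05 than the other 2 comparisons with NN offspring. In either direction the share was 5.88% of the 51 genes, near the 5.46% of like signal probe sets. Like signal probe sets also passed less often in LL than in LN (13.3%) or NL (16.3%). The median of the 51 genes was −0.03, and 3 were lower and none higher at an unadjusted P under 0.05, against 2.83% and 5.6% of all tested and 3.14% and 2.32% of like signal. These were Hnrnpd (−0.38, SE 0.14), Sf3a1 (−0.27, SE 0.12), a subunit of SF3A, and Snrnp200 (−0.24, SE 0.11), with adjusted P of 0.464 to 0.571 (limma). The count was 1 without NN replicate 3 or NN replicate 5 and 6 without NN replicate 6, so it rested on single control arrays.

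NL and LN offspring, in which sperm and seminal plasma came from opposite diets, were also set against each other. Of the 51 genes, 42 were below 0 in NL against LN, where 50.3% of all tested and 61.1% of like signal probe sets were below 0. The median was −0.13, and 9 were lower and none higher at an unadjusted P under 0.05 (4.21% and 2.68% of all tested, 8.22% and 2.63% of like signal). U2surp differed by −0.33 (SE 0.09), Hnrnpc, a protein that coats nascent transcripts, by −0.35 (SE 0.10), and Sf3a3 by −0.40 (SE 0.14). The others were Prpf6, Cdc5l, Dhx15, U2af1, Tra2b and Prpf8, at −0.47 to −0.19. The smallest adjusted P was 0.522, that of U2surp (limma), and the count was 6 without NL replicate 4.

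Over the 4 groups, low protein seminal plasma (NL and LL) was compared with normal seminal plasma (LN and NN). The median of the 51 genes was −0.08, and 9 were lower and none higher at an unadjusted P under 0.05 (3.66% and 4.89% of all tested, 6.48% and 2.32% of like signal). U2surp (−0.24, SE 0.06), Sf3a3 (−0.24) and Snrnp200 (−0.20) had the smallest P, none passed after adjustment (U2surp 0.427, limma), and the count was 4 without NL replicate 4. Low protein sperm (LL and LN), compared with normal sperm (NL and NN), had a median of 0.04, with none lower and 3 higher (2.54% and 3.98% of all tested, 3.26% and 5.17% of like signal): Hnrnpc (0.22, SE 0.07), Rbm25 (0.26, SE 0.11) and U2af1 (0.15, SE 0.07). Adjusted P was 0.643 to 0.764 for these genes (limma), and the count was 1 without LN replicate 2 and 5 without NL replicate 7. For 51 genes, 3 higher is near the 5.17% of like signal probe sets. Against NN, U2af1 differed by −0.24 in NL but by 0.03 in both LN and LL, so its difference by sperm rested on low NL signals. Hnrnpc differed from NN by −0.17 in NL, 0.18 in LN and 0.09 in LL, and Rbm25 by −0.02, 0.26 and 0.24.

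Mismatched offspring (NL and LN) were compared with matched offspring (LL and NN). Of the 51 genes, 12 were lower and 2 higher at an unadjusted P under 0.05 (5.49% and 7.07% of all tested, 8.19% and 7.25% of like signal), and the median was −0.08, against 0.01 over all tested. Son fell 1.29-fold in mismatched offspring (−0.37, SE 0.08, adjusted P = 0.0385, limma), the only 1 of the 51 to pass the threshold that 0.113% of all probe sets passed. No array of NL or LN was above 8.41 and no array of LL or NN was below 8.22, so that the groups overlapped between those values. The call was lost in 15 of the 29 fits that left out 1 array each, those without NL replicate 1, 2 or 7, LN replicate 4, 5, 6 or 7, LL replicate 2, 3 or 6, or NN replicate 2, 3, 4, 5 or 6, with an adjusted P of up to 0.0893. It was also lost with all 30 arrays (0.128). Under quantile normalization the adjusted P of Son was 0.0579, with an unaltered log2 fold change of −0.37. Hybridisation controls averaged 10.46 ± 0.18 (SD, n = 13) on mismatched and 10.77 ± 0.15 (n = 16) on matched arrays, and their part in the lower signal of Son was not tested. U2surp (−0.23, adjusted P = 0.0956) and Hnrnpd (−0.38, adjusted P = 0.120, both limma) came next, and Ptbp1 (0.25) and Snrpb (0.14) were the 2 higher genes.

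The effect of NL against NN was then followed in each sex, with 3 NL against 4 NN males and 3 NL against 3 NN females. In males 5 of the 51 genes were lower and 1 was higher at an unadjusted P under 0.05 (5.55% and 5.94% of all tested, 10.1% and 4.95% of like signal), with a median of −0.13. The share of lower genes in males, 9.80%, was thus near that of like signal probe sets. In females 12 were lower and 1 was higher (4.3% and 5.24% of all tested, 5.93% and 3.58% of like signal), with a median of −0.22. U2surp differed by −0.48 (SE 0.12) in males and −0.45 (SE 0.13) in females, and Hnrnpd differed by −0.62 (SE 0.17) in males and −0.68 (SE 0.18) in females. Adjusted P was 0.162 or more in males and 0.361 or more in females (limma). The male count was 3 without NL replicate 4. The difference between the sexes was itself tested, and no gene passed (smallest adjusted P of 0.970, limma), with 3 at an unadjusted P under 0.05 higher in males minus females and none lower (2.31% and 2.67% of all tested). These were Prpf3, Srsf3 and Sf3a1, whose log2 fold change was more negative in females by 0.63, 0.64 and 0.53. Prpf3 averaged 5.88 ± 0.08 in NL males, 5.87 ± 0.24 in NN males, 5.80 ± 0.16 in NL females and 6.42 ± 0.08 in NN females. The same difference of effect was 3 lower and 1 higher for LN against NN (3.58% and 3.52% of all tested) and 1 lower and 3 higher for LL against NN (3.37% and 3.12% of all tested), none past the adjusted threshold.

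Males and females of all groups differed in 3 of these genes at an adjusted P under 0.05, against 5.65% of all tested probe sets and 9.43% of those of like signal. At an unadjusted P under 0.05, 7 were lower and 4 higher in males (8.67% and 8.58% of all tested, 13.6% and 12.5% of like signal). In either direction these were 21.6% of the 51 genes, against 26.1% of like signal probe sets. Hnrnpd was at 7.41, 8.30 and 8.75 (lowest, median, highest) on 15 male arrays and 8.00, 8.56 and 9.08 on 14 female arrays, and was 1.29-fold lower in males (−0.37, SE 0.09, adjusted P = 0.00703, limma). Prpf6 was at 7.90, 8.76 and 9.32 on male arrays and 8.08, 8.24 and 8.84 on female arrays (0.39, SE 0.10, adjusted P = 0.0113, limma). Ptbp1 was at 8.61, 9.03 and 9.28 on male arrays and 8.26, 8.72 and 9.11 on female arrays (0.24, SE 0.07, adjusted P = 0.0466, limma). The sexes overlapped in each of the 3 genes, and the mean of males was on the same side of that of females in every diet group. The calls of Hnrnpd and Prpf6 held in all 29 fits that left out 1 array each and without LL replicate 1 (0.00955 and 0.00232). That of Ptbp1 was lost in 19 of those 29 fits, with an adjusted P of up to 0.0935, and held only without NL replicate 2 or 5, LN replicate 1 or 4, LL replicate 1, 5 or 9, or NN replicate 1, 6 or 7. The count of 11 genes became 7 without LN replicate 1 or NN replicate 2. With all 30 arrays none of the 3 passed, at 0.0633 for Hnrnpd, 0.789 for Prpf6 and 0.746 for Ptbp1, but the added array, NL replicate 6, enters as a male although its Y-linked signals were near those of females. Hnrnph1, an hnRNP that binds runs of G, had −0.25 (adjusted P = 0.0717, limma).

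**Figure D4:**
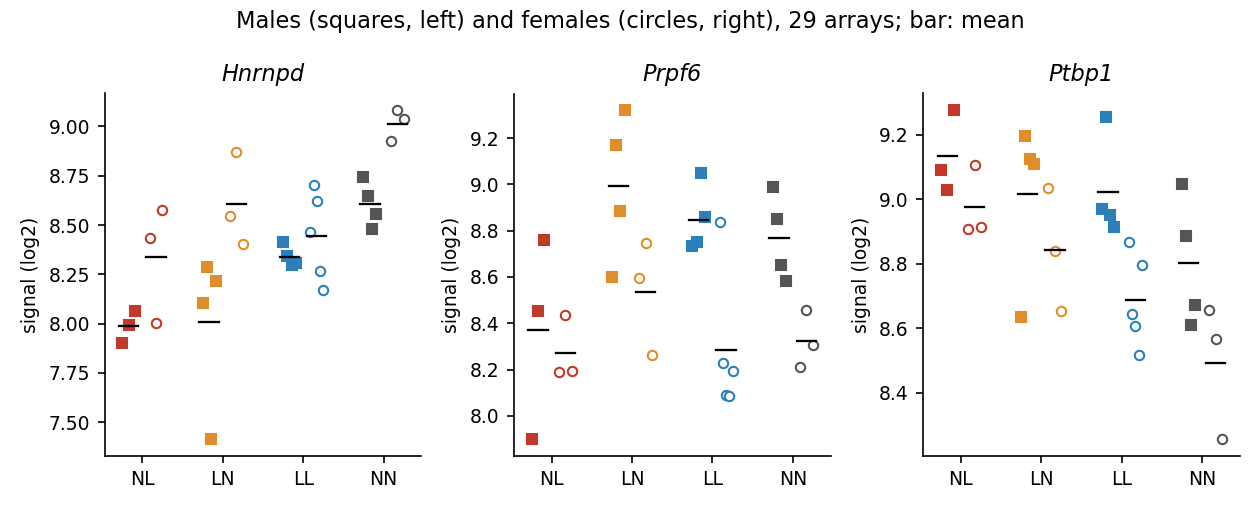
Log2 signal of Hnrnpd, Prpf6 and Ptbp1 in males (filled squares) and females (open circles) of each group, 29 arrays, bars at the means. Males are lower in Hnrnpd and higher in Prpf6 and Ptbp1 in each of the 4 groups, with overlap between the sexes.

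Other genes of RNA processing, listed apart from the 51, were measured for 132 of 142 symbols. In NL against NN, 26 of them were lower and 2 higher at an unadjusted P under 0.05, with a median of −0.11, against 5.98% lower and 8.08% higher of all tested and 10.4% and 5.96% of like signal, and none passed after adjustment. The like signal range was drawn from the 51 genes, not from these 132. By kind, 12 of 59 other snRNP and core splicing genes, 6 of 36 other SR, hnRNP and regulatory genes, 2 of 8 SR protein kinases, 2 of 7 minor spliceosome genes, 2 of 13 genes of the exon junction complex and mRNA export, and 2 of 9 genes of mRNA methylation were lower, so that each of the last 4 kinds rested on 2 genes. Thoc1 and Thoc2, subunits of the THO complex that couples transcription to export, averaged 6.75 ± 0.22 and 5.97 ± 0.31 in NL and 7.30 ± 0.15 and 6.67 ± 0.30 in NN, with log2 fold changes of −0.54 (adjusted P = 0.0665) and −0.70 (adjusted P = 0.0734, both limma). Zmat2, a zinc finger protein of the spliceosome, differed by −0.52 (adjusted P = 0.0591) and Srsf9, a further SR protein, by −0.38 (adjusted P = 0.103, both limma). Syf2, Prpf39, Bcas2, Snrpa1 and Wtap, a subunit of the complex that methylates adenosine in mRNA, had log2 fold changes of −0.53 to −0.36.

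Within groups of the same diet and sex, the 51 genes varied together to a small extent. The median Pearson correlation over pairs of them, from residuals on 29 arrays, was 0.14, against 0.05 for 707 of the like signal probe sets (every 10th) and 0.00 for 1111 of all tested (every 20th), as a description of values that share arrays and labelling. It was 0.32 among the hnRNPs and 0.01 among the Sm and U1 proteins. The median SD within groups was 0.21 for the 51 genes, 0.22 for like signal and 0.25 for all tested. Of the 6 Kupffer cell markers, Clec4f and Cd5l were higher in NL than in NN offspring at an unadjusted P under 0.05 (0.38 and 0.37), with a mean of all 6 from 6.97 to 7.88 on NL arrays and from 6.93 to 7.85 on NN arrays. Pdgfrb, 1 of 6 stellate cell markers, was lower (−0.25), and no other marker of 10 cell types differed at that level. The part of these markers in the lower signals of the 51 genes was not tested.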

How the data were processed

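Liver RNA was hybridised to 1-colour Clariom S arrays. The authors deposited log2 signals per probe set, made with Partek, as named in the submitters' processing notes, with background correction and normalization not given in the sources used here. This file holds 29129 probe sets, of which 22206 remained after removal of 6923 controls and were analysed unfiltered. Tables were read with data.table (version 1.17.8) and tested in R 4.3.3 with linear models of limma 3.58.1, in 1 fit of 4 diet groups and 1 fit of 8 groups of diet and sex, without NL replicate 6. Two-sided P values were adjusted over all 22206 probe sets after Benjamini and Hochberg. A simulation with 200 altered probe sets served to check the scripts.
The genes, gene lists and comparisons were chosen with earlier results of these data known. Of each role, up to 4 genes with the smallest P in NL against NN were named, with every gene past an adjusted P of 0.05 in a comparison of both sexes, up to 3 higher and 3 lower genes at an unadjusted P under 0.05 in the other comparisons, and from the other splicing genes the 8 with the smallest P, Wtap, Thoc1 and Thoc2. Other genes are given as ranges or in passing. Promoters were taken from RefSeq, the first entry of a symbol where 11 of 47 genes had several.
Alternatives were all 30 arrays, arrays left out singly and jointly, quantile normalization, median centring, loess against the mean array, the replicate number as a block, plain residual variance, a covariate for sex, and removal of probe sets under the 40th percentile. Their use for single genes between males and females was chosen after seeing the data. The number of arrays limits the precision.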

Additional observations from a re-analysis of the deposited data

Results flagged for a closer look

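Among 121 sets of values examined, those of 29 named genes and of the median over the 51 genes in each diet group, and of that median with NL replicate 6 included, 8 held an array far from the rest of its group. The set with NL replicate 6 is among the 8, and was added because that array was known to stand apart. Chance flags about 1 in 20 such groups, so the flags among the other sets are near the number that chance would give. The median deviation of the 51 genes on NL replicate 6 was −1.94, and the next NL array was at −0.30. Prpf19, a ubiquitin ligase of the Prp19 complex, was at 8.87 on NL replicate 7, against 8.48 at most on the other 5 NL arrays. Prpf4, a protein of the U4/U6 snRNP, was at 5.16 on LN replicate 3, against 5.98 or more on the other LN arrays, and at 5.19 on LL replicate 1, whose Y-linked signals lay between the sexes, against 5.66 or more on the other LL arrays. Cdc5l, a core protein of the Prp19 complex, was at 6.67 on LN replicate 2, and the next LN array was at 6.06. Snrnp70, the U1 protein, was at 8.22 on LL replicate 6, and the next was at 8.65. U2af1, the reader of the 3′ splice site, was at 8.84 on NN replicate 3, against 8.34 or less on the other NN arrays, and Snrnp200, the U5 helicase, was at 7.27 on NN replicate 7, against 7.61 or more. Whether RNA quality or hybridisation set these values was not tested.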

How the results depend on the processing

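The number and quality of the arrays set the limits here: 3 to 9 arrays a group, and 1 array, NL replicate 6, whose inclusion moved more values than any rescaling. With all 30 arrays, counts at an unadjusted P under 0.05 became 26 in NL against NN, 3 in LN against NN, 0 in LL against NN, 21 in NL against LN, 24 in NL against NN males, 4 in NL against NN females and 5 between the sexes, where this array enters as a male in spite of Y-linked signals near those of females. From NL against NN to NL against LN, in that order, 27.3%, 4.43%, 1.17% and 22.8% of like signal probe sets passed. Of all tested, 23.8%, 4.66%, 3.39% and 14.6% did. No gene passed the adjusted threshold in NL against NN, in mismatched against matched offspring or between the sexes. Medians became −0.43 in NL against NN, −0.38 in NL against LN, −0.22 for seminal plasma, 0.17 for sperm, −0.20 in mismatched offspring, −0.54 in NL against NN males and −0.13 between the sexes. Luc7l3 in NL against NN turned to 0.00482.
Without both NL replicates 6 and 4, counts were 0 adjusted in NL against NN, 4 for seminal plasma and 3 in males. Rbm25 and Prpf19 in NL against NN turned to 0.0227 and 0.00955 there, to 0.0320 and 0.0181 under quantile normalization and to 0.00578 and 0.00271 under loess, and with 1 array left out they ran from −0.10 to 0.0394 and from −0.11 to 0.00955. Adjusted counts in mismatched offspring were 0 under quantile normalization and under loess, and 2 under the filter and under plain variance, and with sex as a covariate 2 genes passed in NL against NN. Median centring gave 6 genes in LL against NN and 12 in males, sex as a covariate 5 in LL against NN, and plain variance 5 for sperm.
Leaving out 1 array in turn gave 0 to 1 adjusted calls in NL against NN and in mismatched offspring. The unadjusted counts ran from 13 to 21 in NL against NN, 4 to 9 in LN against NN, 1 to 6 in LL against NN, 4 to 12 for seminal plasma, 1 to 5 for sperm, 3 to 9 in males and 7 to 12 between the sexes.
With the replicate number as a block, no gene passed in NL against NN or between the sexes, where 3 genes passed an unadjusted P of 0.05, and Hnrnpd and Hnrnph1 turned to 0.10 and 0.0443. The numbers were not taken to pair the arrays, since the labels name no shared litter or batch and 12 of 39 pairs with the same number correlated at 0.1 or less, or 33 of 39 under 0.1 with sex in the group means, and 6 of 27 arrays correlated best with their own number. Since the labels number females before males, a number and a sex largely coincide.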
